A study of Homo sapiens with 6 samples.

Results

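The respiratory chain and the ATP synthase are built in the mitochondrial inner membrane from proteins of separate genomes, and only the genes in the nucleus are described here. They were taken as the protein-coding genes outside the mitochondrial chromosome whose symbol starts with NDUFA, NDUFB, NDUFC, NDUFS, NDUFV, UQCR, COX4, COX5, COX6, COX7, COX8 or ATP5, or is SDHA, SDHB, SDHC or SDHD, without the NDUFAF and SDHAF assembly factors. The rule found 90 of the 58174 genes in the deposited tables: 38 of complex I, 4 of complex II, 9 of complex III, 19 of complex IV and 20 of the ATP synthase (complex V). NDUFA4 and its paralog NDUFA4L2 were counted with complex IV, where NDUFA4 is now placed, and the readthrough genes NDUFC2-KCTD14 and ATP5MF-PTCD1 overlap other members. No measured value entered the rule.

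Complex I takes electrons from NADH and complex II takes them from succinate, and both pass them to coenzyme Q. Complex III moves them on to cytochrome c, and complex IV hands them to oxygen. Complexes I, III and IV pump protons out of the matrix, and the ATP synthase lets them return through a ring of c subunits whose rotation drives ATP synthesis. Glioblastoma cells are known for a high glycolytic flux, and they also respire. Transcription of the nuclear subunit genes is commonly linked to the factors NRF1, GABP (an ETS family factor) and YY1 and to the coactivator PPARGC1A.

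RNA of LN-229, an established human glioblastoma cell line, was sequenced in 6 libraries: 3 labelled control-NC and 3 labelled sh-JMJD1C, which by its usual reading is a short hairpin RNA against the transcript of the histone demethylase gene JMJD1C. In all 6 the starting material was nuclear-enriched total RNA from which ribosomal RNA had been removed. The labels name neither the hairpin sequence nor the time after treatment nor the cultures behind the libraries, so p-values measure only the spread between these libraries, which may be technical. In such bulk RNA, a smaller share of cells of a kind and less RNA per cell cannot be told apart. JMJD1C itself had 168, 93.1 and 171 scaled RPM in control 1 to 3 against 43.1, 11 and 28.1 in sh-JMJD1C 1 to 3, where scaled RPM are RPM after scaling the libraries to a common level by median ratios of their genes. It was lower in each sh-JMJD1C library than in each control. The planned limma test on FPKM did not pass for it (log2 fold change -1.82, SE 0.41, adjusted p = 0.118), a two-sided exact permutation test reached p = 0.10, its lower limit with 3 against 3, and limma-voom on reads gave an adjusted p of 0.0254 (-2.50, SE 0.51).

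The libraries held 544442 to 2960454 reads, with control 1 the smallest, and the classes of RNA in them differed with the group. MALAT1, a nuclear long non-coding RNA, took 1.25% to 2.40% of reads in the controls and 0.0915% to 0.292% in the sh-JMJD1C libraries, and NEAT1 took 0.126% to 0.258% against 0.0292% to 0.0394%. RN7SL genes, whose RNA works in the cytoplasm, took 0.378% to 1.77% in the controls, 1.18% in sh-JMJD1C 1, and 15.7% and 18.5% in sh-JMJD1C 2 and 3. The mitochondrial chromosome took 2.93% to 8.70% of control reads, 12.6% in sh-JMJD1C 1 and 1.33% and 1.70% in the other two. The part of these shares in the results below was not tested. VIM, CD44 and EGFR, of the 10 glioma and astroglial markers, were well above the floor in all libraries, and the list summed to 2061 to 2199.8 scaled RPM in the controls and 1182 to 2158 in the sh-JMJD1C libraries. EGFR, a growth factor receptor, had 1162, 1152 and 1094 scaled RPM in control 1 to 3 against 753, 298 and 268 in sh-JMJD1C 1 to 3, with no overlap. It did not pass limma-voom (log2 fold change -1.54, SE 0.45, adjusted p = 0.0589) but passed in limma over protein-coding genes alone (adjusted p = 0.0495) and in limma-voom without both libraries numbered 1 (0.0234). With the longest transcript, principal transcript, or length and GC trends removed, 0 of the 4 tested markers of this list had an unadjusted limma-voom p below 0.05. Of all 11872 genes 3101, 3180 and 3180 did. The lowest log2 fold change among the 4 markers was then -0.72, -0.68 and -0.67. S100B and CHI3L1 had no reads, SOX2 and GFAP were at or near 0, and the 4 immune, 3 endothelial and 3 neuronal markers each summed to at most 10.2 scaled RPM in a library. Of the 4 epithelial markers, the keratin genes KRT8 (log2 fold change 2.94, SE 0.47, adjusted p = 0.0117) and KRT18 (log2 fold change 1.87, SE 0.41, adjusted p = 0.0305) rose in limma-voom, KRT18 not with the trend over principal transcript length removed (adjusted p = 0.0641), while EPCAM and CDH1 had at most 3.97 scaled RPM in any library. MBP, the oligodendrocyte marker above the floor, went from 21.0 to 44.8 scaled RPM in the controls to 7.02 to 16.5 in the sh-JMJD1C libraries, without passing the test (-1.32, adjusted p = 0.106).

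Reads on the 90 genes made up a larger share of every sh-JMJD1C library than of any control library. The share was 0.351% (exact 95% binomial interval 0.336% to 0.367%), 0.522% (0.512% to 0.532%) and 0.502% (0.494% to 0.51%) in control 1 to 3. In the sh-JMJD1C libraries, in the same order, it was 0.637% (0.625% to 0.649%), 1.16% (1.14% to 1.17%) and 1.20% (1.18% to 1.22%). The intervals cover counting error only. The groups did not overlap, and sh-JMJD1C 1 lay between the controls and the other two sh-JMJD1C libraries. Each of the 5 complexes had the same order of groups. Complex IV took 0.0533% to 0.0836% in the controls against 0.10%, 0.240% and 0.266% in sh-JMJD1C 1 to 3. Complex II took 0.0366% to 0.0558% against 0.0698%, 0.0992% and 0.077%.

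**Figure D1:**
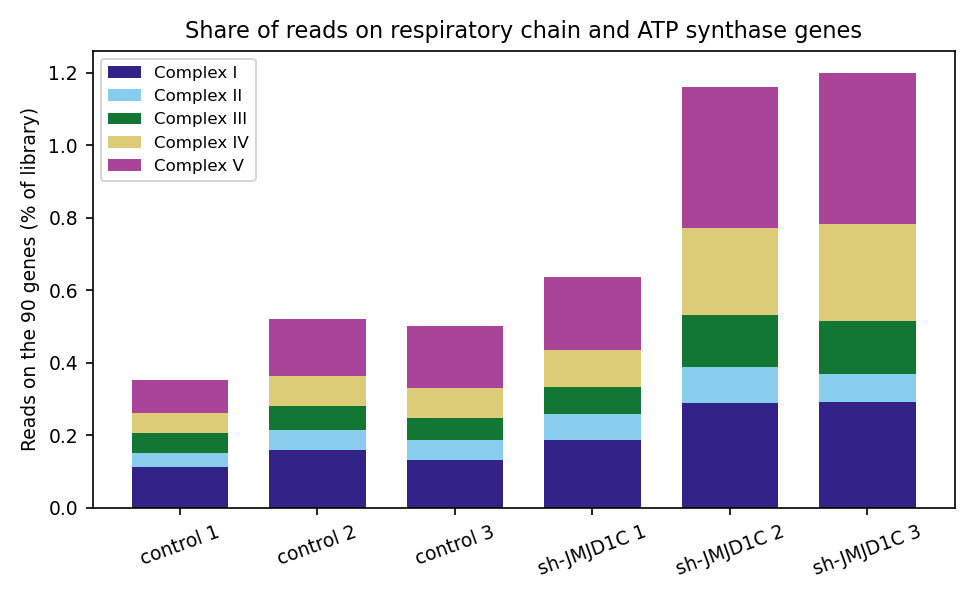
Share of each library's reads that fell on the 90 genes, in percent, stacked by complex; each bar is 1 library. Bars of the control libraries end between 0.351% and 0.522%, that of sh-JMJD1C 1 at 0.637%, and those of sh-JMJD1C 2 and 3 at 1.16% and 1.20%.

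Of the 90 genes, 5 had no read in any library, 82 passed the filter on low values of the planned test (a mean FPKM of at least 0.5), and 80 had the 60 reads over the 6 libraries that the fit on reads asks for. The planned test, limma on log2(scaled FPKM + 0.5) with Benjamini-Hochberg adjustment over 18383 genes, passed none of the 82 at an adjusted p of 0.05, where it passed 0.185% of all genes, 0.0598% as higher and 0.125% as lower. Without adjustment, 40 of the 82 had p below 0.05, against 3658 of all 18383. The members' log2 fold changes were above 0 for 75 of 82 (44.2% of all genes), with a median of 1.13 against -0.16 for all genes. Limma-voom on reads recovered from the deposited FPKM passed 13 of 80 members as higher and 0 as lower, against 5.49% of all 11872 genes, 3.7% as higher and 1.79% as lower. Genes that passed limma-voom are called risen or fallen below. Without adjustment, limma-voom gave 48 of the 80 members a p below 0.05, against 3653 of all 11872 genes. Its median over the members was 1.32, a 2.51-fold difference, against -0.08 for all genes, and 75 of 80 members lay above 0, as did 47.2% of all genes. In 39 of the 80 members every sh-JMJD1C library was above every control library, and in 1, NDUFV2, every one was below (17.4% and 17.2% of all genes). The other 40 overlapped between the groups.

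Leaving out 1 library at a time changed these counts. Without control 1, control 3, sh-JMJD1C 2 or sh-JMJD1C 3, limma-voom passed 0 of the 80 members, where 0.303%, 0.337%, 0.261% and 0.817% of all genes passed. Of the members 41, 30, 37 and 38 then had an unadjusted limma-voom p below 0.05, and of all 11872 genes 2539, 2394, 2086 and 2883. Limma on FPKM also passed 0 there. Its unadjusted p was below 0.05 in 27, 25, 18 and 18 of 82 members, and in 2890, 2630, 2007 and 2594 of all 18383 genes. Without control 2 limma-voom passed 17 as higher and 0 as lower (5.18% and 5.64% of all genes), and without sh-JMJD1C 1 it passed 50 and 0 (14% and 5.6%). Left out together, the libraries numbered 1 gave 28 members higher and 0 lower, where 6.65% of all genes passed as higher and 0.876% as lower. Set against the control mean, the median log2 difference over the tested members was 0.53 in sh-JMJD1C 1, 1.59 in sh-JMJD1C 2 and 1.68 in sh-JMJD1C 3, and between -0.14 and 0.09 in the controls. The library with the smallest shift, sh-JMJD1C 1, was also the one without the high RN7SL share.

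**Figure D2:**
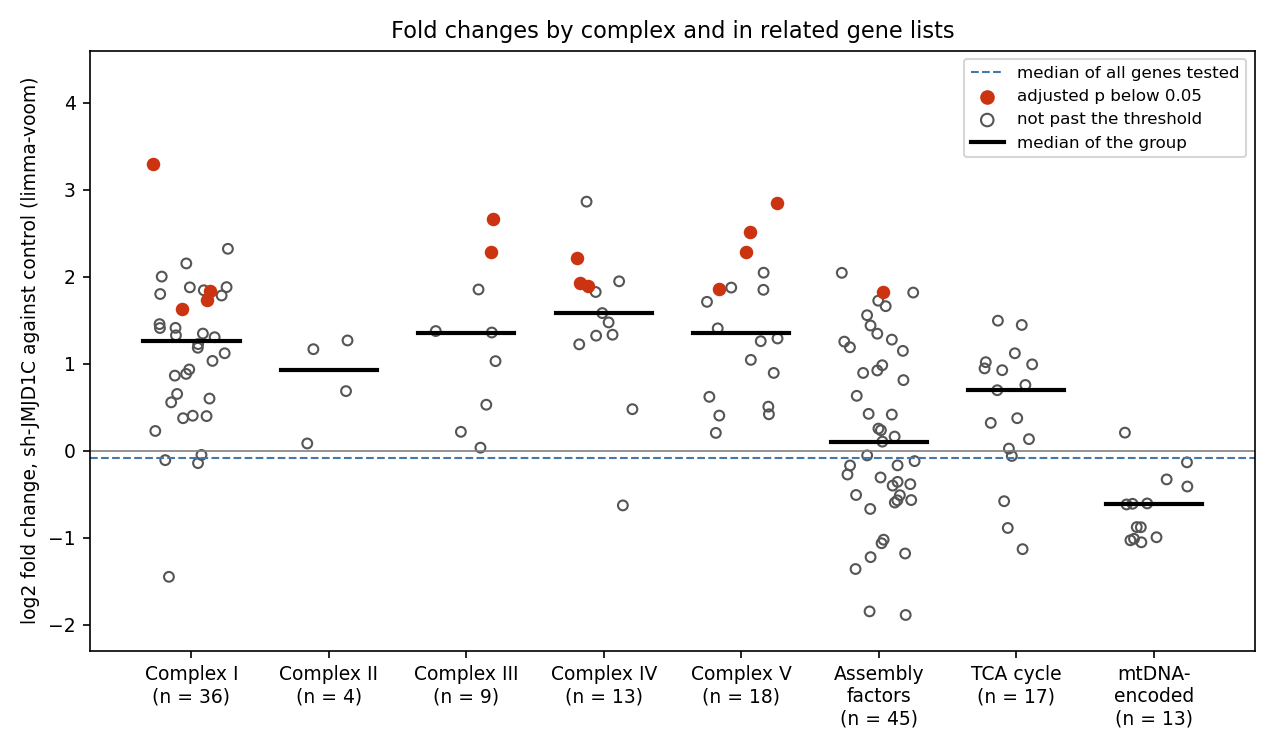
Log2 fold change of sh-JMJD1C against control from limma-voom on reads (vertical axis) for the tested members of each complex and for 3 related lists; each point is a gene, filled where the adjusted p is below 0.05, and the bar is the group's median. The medians of the 5 complexes lie between 0.93 and 1.58, those of the assembly factors and the genes encoded in the mitochondrion at 0.10 and -0.62, and NDUFV2 is the complex I point at -1.45.

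Over all genes 3.7% rose in limma-voom and 1.79% fell, the shares to set beside the counts of each complex. Complex I was the largest group, and 4 of its 36 tested genes rose in limma-voom, 32 lay above 0 and the median was 1.27. All 4 are accessory subunits, which surround the catalytic core: NDUFB7, NDUFB11, NDUFS5 and NDUFS6. NDUFB7 (chromosome 19, 14566078 to 14572062, minus strand, hg38 as for all positions) encodes a subunit on the intermembrane-space side of the membrane arm and had the highest fold change of all tested members. It had 17.1, 31.3 and 14.2 scaled RPM in control 1 to 3 against 59.6, 541 and 244 in sh-JMJD1C 1 to 3. No sh-JMJD1C library overlapped a control, and sh-JMJD1C 1 was far below the other two of its group (log2 fold change 3.30, SE 0.73, adjusted p = 0.0311).

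NDUFB11 (chromosome X, 47142216 to 47145504, minus strand) encodes another subunit of the membrane arm. It had 32, 47.2 and 44.3 scaled RPM in control 1 to 3 against 98.2, 232 and 156 in sh-JMJD1C 1 to 3 (log2 fold change 1.84, SE 0.41, adjusted p = 0.0328). NDUFS6 (chromosome 5, 1801400 to 1816605, plus strand), a zinc-binding accessory subunit, had 134, 112 and 54 scaled RPM in control 1 to 3 against 224, 293 and 341 in sh-JMJD1C 1 to 3 (log2 fold change 1.64, SE 0.42, adjusted p = 0.0459). NDUFS5 (chromosome 1, 39026318 to 39034636, plus strand), on the intermembrane-space side, had 38.4, 36.6 and 16.9 scaled RPM in control 1 to 3 against 72.7, 78.8 and 125 in sh-JMJD1C 1 to 3 (log2 fold change 1.74, SE 0.44, adjusted p = 0.0452). In NDUFS5 and NDUFS6 the sh-JMJD1C libraries lay closer together than in NDUFB7.

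The 7 core subunits, which carry the flavin and the iron-sulfur clusters, had a median of 1.03 with 0 called, against 1.33 and 4 called for the 29 tested accessory subunits. Their unadjusted limma-voom p was below 0.05 in 4 of 7 and 16 of 29, against 3653 of all 11872 genes. Limma on FPKM passed 0 of either. With the trend of fold changes over principal transcript length removed, the medians were 0.66 and 0.60 with 0 and 1 called, and with length and GC trends removed 0 of either were called. Whether core and accessory subunits differ was not tested. NDUFS1, the largest core subunit, had 93.8, 98.4 and 117 scaled RPM in control 1 to 3 against 93.1, 90.5 and 97.6 in sh-JMJD1C 1 to 3 (log2 fold change -0.14, SE 0.34, adjusted p = 0.793), and its direction turned, to 0.55, with the principal transcript trend removed. NDUFV2, an iron-sulfur core subunit of the arm that oxidises NADH, was the member furthest in the other direction, with 8.53, 6.51 and 13.9 scaled RPM in control 1 to 3 against 5.68, 2.06 and 2.81 in sh-JMJD1C 1 to 3. Its groups did not overlap, it had 94 reads in all, and it did not pass (log2 fold change -1.45, SE 0.70, adjusted p = 0.179). Its pseudogene copy NDUFV2P1 had 50 reads, and whether reads were split between them was not tested. NDUFB8, NDUFA2 and NDUFB10 had fold changes of 2.32, 2.15 and 1.23 with adjusted p of 0.0880, 0.0811 and 0.0931. That of NDUFB10 was 0.34 with the principal transcript trend removed and -0.10 with length and GC trends removed. For NDUFB8, control 1 had 0 reads, which allows up to 6.40 scaled RPM (3 reads), and the other controls had 4.07 and 6.60 against 9.65 to 43.5 in the sh-JMJD1C libraries. NDUFB10 had the highest level per length within complex I, 179.8 ± 83.5 scaled RPM per kilobase of its principal transcript in the controls.

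Complex II, the succinate dehydrogenase of the TCA cycle, has no subunit encoded in the mitochondrion. None of its 4 genes passed either test, and its median was 0.93. The unadjusted p was below 0.05 in 2 by each, against 3653 of all 11872 genes by limma-voom and 3658 of 18383 by limma on FPKM. SDHA, the flavoprotein, had 313, 329 and 283 scaled RPM in control 1 to 3 against 509, 1029.5 and 633 in sh-JMJD1C 1 to 3 (log2 fold change 1.17, SE 0.38, adjusted p = 0.0765), and SDHB, the iron-sulfur subunit, had 66.1, 64.6 and 45 scaled RPM in control 1 to 3 against 107, 162 and 148 in sh-JMJD1C 1 to 3 (log2 fold change 1.27, SE 0.37, adjusted p = 0.0604). Both were higher in every sh-JMJD1C library. The membrane anchors SDHC and SDHD overlapped between the groups, with fold changes of 0.69 (adjusted p = 0.313) and 0.08 (adjusted p = 0.954, 66 reads in all).

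In complex III, 2 of 9 genes rose in limma-voom and the median was 1.36. UQCRC1 (chromosome 3, 48599002 to 48610976, minus strand), a core protein on the matrix side, had 124, 149 and 90.9 scaled RPM in control 1 to 3 against 275, 1071 and 657 in sh-JMJD1C 1 to 3 (log2 fold change 2.29, SE 0.49, adjusted p = 0.0285). Its partner UQCRC2 had 117, 141 and 131 scaled RPM in control 1 to 3 against 149, 141 and 166 in sh-JMJD1C 1 to 3 (log2 fold change 0.22, SE 0.34, adjusted p = 0.680). The core proteins sit in the complex side by side, and UQCRC1 passed while UQCRC2 overlapped between the groups. The difference between them was not tested. UQCRQ (chromosome 5, 132866560 to 132868031, plus strand), a small subunit bound to cytochrome b, had 32, 22.8 and 16.9 scaled RPM in control 1 to 3 against 37.5, 256 and 258 in sh-JMJD1C 1 to 3. In UQCRQ, sh-JMJD1C 1 was close to control 1, and the other two sh-JMJD1C libraries lay far above (log2 fold change 2.66, SE 0.70, adjusted p = 0.0492).

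UQCRB, the ubiquinone-binding protein subunit, spanned 64.1 to 179 scaled RPM in the controls and 59.0 to 192 in the sh-JMJD1C libraries (0.03, adjusted p = 0.968), and UQCR11 had a fold change of 1.85 (adjusted p = 0.162). UQCRH, the hinge protein for cytochrome c1, had 1.03 (adjusted p = 0.163). Its value is uncertain, since the coding sequences of UQCRH and UQCRHL differ at 4 of 276 bases (98.6% identity, longest identical stretch 157 bases) and reads could be split between them.

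Complex IV had the highest median, 1.58, with 3 of 13 tested genes risen in limma-voom and 12 above 0. COX5B (chromosome 2, 97646040 to 97648383, plus strand), the zinc-binding subunit on the matrix side, had 83.2, 82.9 and 80.9 scaled RPM in control 1 to 3 against 141, 671 and 587 in sh-JMJD1C 1 to 3. The controls were nearly equal and all sh-JMJD1C libraries were above them (log2 fold change 2.22, SE 0.54, adjusted p = 0.0399). COX6B1 (chromosome 19, 35648223 to 35658861, plus strand), on the side that faces cytochrome c, had 57.6, 86.6 and 34.2 scaled RPM in control 1 to 3 against 125, 314 and 221 in sh-JMJD1C 1 to 3 (log2 fold change 1.90, SE 0.47, adjusted p = 0.0415). COX8A (chromosome 11, 63974607 to 63976543, plus strand), a small membrane subunit, had 29.9, 23.2 and 19.8 scaled RPM in control 1 to 3 against 65.3, 146 and 69.5 in sh-JMJD1C 1 to 3 (log2 fold change 1.93, SE 0.44, adjusted p = 0.0334).

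COX4I1, the regulatory subunit that binds ATP, was the highest of the members per length in both groups, at 216 ± 32.1 and 889.8 ± 513 scaled RPM per kilobase (mean ± SD, n = 3 each). It was higher in every sh-JMJD1C library and missed the threshold narrowly (log2 fold change 1.83, SE 0.51, adjusted p = 0.0547). COX7A2 had the largest fold change of complex IV but its sh-JMJD1C libraries spread widely, with 8.53, 9.35 and 21.3 scaled RPM in control 1 to 3 against 17.6, 261 and 235 in sh-JMJD1C 1 to 3 (log2 fold change 2.86, SE 0.97, adjusted p = 0.0827). COX6A1, whose pseudogene copy COX6A1P2 had 106 reads against its 274, had a fold change of 1.95 (adjusted p = 0.105), and COX6C of 0.48 (adjusted p = 0.586).

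Several complex IV subunits have second isoforms that are restricted to certain tissues, and in LN-229 the common forms carried the reads. The lung form COX4I2, the heart and skeletal muscle form COX6A2, and COX7B2 and COX8C had 0 reads in all 6 libraries, which allows up to 0.733 to 6.40 scaled RPM per library. The testis form COX6B2 had 2 reads and the muscle form COX7A1 14 reads over all libraries, too few for a fold change on reads. NDUFA4L2, known as a hypoxia-induced paralog of NDUFA4, had 6.40, 14.2 and 6.36 scaled RPM in control 1 to 3 against 7.38, 9.60 and 2.11 in sh-JMJD1C 1 to 3 (log2 fold change -0.63, SE 0.67, adjusted p = 0.536). The groups overlapped, and NDUFA4L2 was the only tested complex IV gene below 0.

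In the ATP synthase, 4 of 18 tested genes rose in limma-voom, all 18 lay above 0 and the median was 1.35. ATP5F1B (chromosome 12, 56638175 to 56646068, minus strand), the catalytic beta subunit of the F1 head, had the most reads of all members, 8317 over the 6 libraries. It had 168, 275 and 329 scaled RPM in control 1 to 3 against 515, 2017 and 1661 in sh-JMJD1C 1 to 3, so that sh-JMJD1C 2 and 3 stood far above sh-JMJD1C 1 and that library above the controls (log2 fold change 2.29, SE 0.52, adjusted p = 0.0334). ATP5F1D (chromosome 19, 1241746 to 1244826, plus strand), the delta subunit of the rotating stalk, had 44.8, 74.4 and 24 scaled RPM in control 1 to 3 against 161, 201 and 113 in sh-JMJD1C 1 to 3 (log2 fold change 1.86, SE 0.47, adjusted p = 0.0436). Here sh-JMJD1C 1 was not the lowest of its group.

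By part of the enzyme, the median was 1.26 for the 5 F1 subunits, 2.52 for the 3 genes of the c ring, 1.85 for 5 membrane accessory subunits and 0.52 for the 4 genes of the peripheral stalk, which holds the F1 head still. With the principal transcript trend removed the medians were 0.97, 1.69, 0.79 and 0.05 in the same order, and 2 of the 4 stalk genes lay below 0. These are medians of few genes and their differences were not tested. The stalk gene ATP5PO had 29.9, 15 and 19.3 scaled RPM in control 1 to 3 against 29.5, 15.8 and 33.7 in sh-JMJD1C 1 to 3 (log2 fold change 0.42, SE 0.46, adjusted p = 0.544), with overlapping groups. ATP5MF, a membrane subunit, was higher in each sh-JMJD1C library and did not pass (log2 fold change 1.85, SE 0.55, adjusted p = 0.0617), and part of its locus is shared with the readthrough gene ATP5MF-PTCD1. ATP5IF1, the inhibitor that blocks the enzyme from running in reverse, spanned 19.6 to 104 scaled RPM in the controls and 29.5 to 75.8 in the sh-JMJD1C libraries (log2 fold change 0.20, SE 0.60, adjusted p = 0.834).

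**Figure D3:**
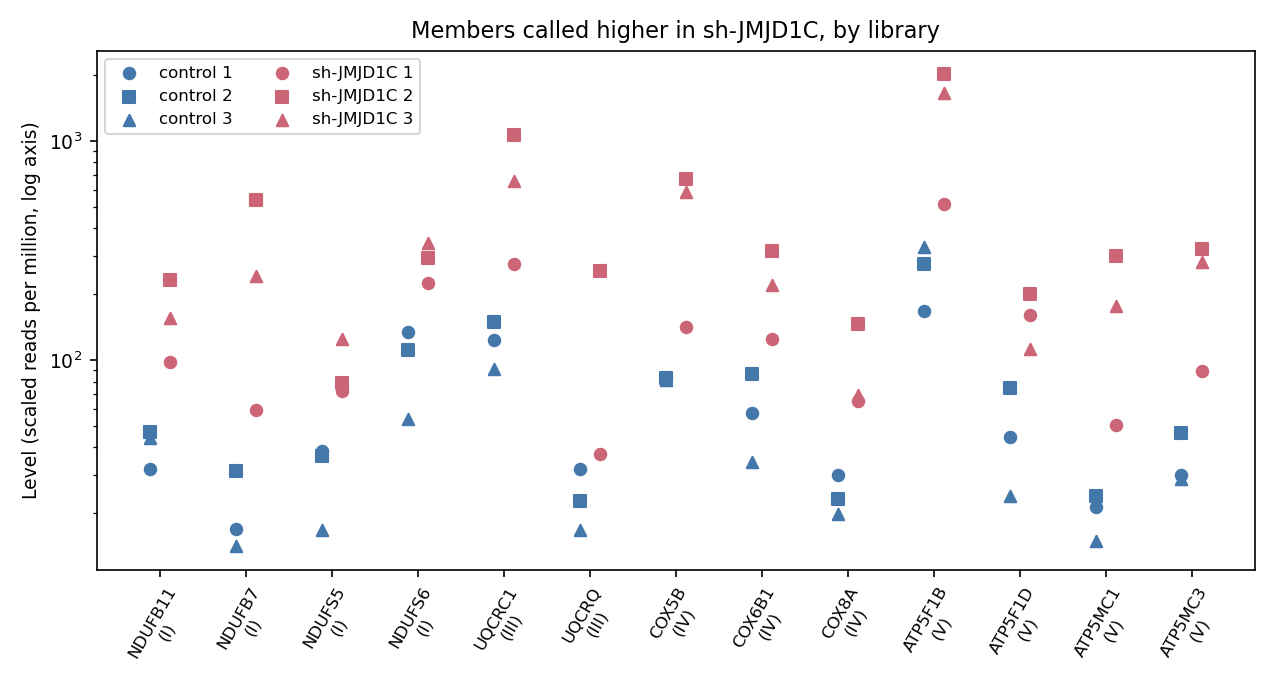
Level of the 13 members that passed limma-voom on reads, in scaled RPM on a log axis; each point is 1 library, with its complex in parentheses under each gene. In every gene the 3 sh-JMJD1C points lie above the 3 control points, and in most the points of sh-JMJD1C 2 and 3 lie above that of sh-JMJD1C 1.

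The c subunit of the proton-carrying ring is encoded by 3 genes on different chromosomes, ATP5MC1 (chromosome 17, 48892765 to 48895871, plus strand), ATP5MC2 (chromosome 12, 53632726 to 53677408, minus strand) and ATP5MC3 (chromosome 2, 175176258 to 175184607, minus strand). Their precursors differ in the targeting peptide that is cut off on import. The last 225 coding bases before the stop codon are shown because they encode the same 75 amino acids in all 3 genes, the mature c subunit, while the bases differ. Whether the counting told reads of the 3 genes apart was not tested. Capitals mark the 52 positions at which the 3 differ, read 5′ to 3′ on the coding strand from GENCODE release 29 transcripts (hg38).
ATP5MC1: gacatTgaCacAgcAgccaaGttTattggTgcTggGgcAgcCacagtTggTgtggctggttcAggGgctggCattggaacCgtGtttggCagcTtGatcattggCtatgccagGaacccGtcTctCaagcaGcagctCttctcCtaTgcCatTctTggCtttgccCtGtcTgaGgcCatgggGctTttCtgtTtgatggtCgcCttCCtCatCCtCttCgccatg
ATP5MC2: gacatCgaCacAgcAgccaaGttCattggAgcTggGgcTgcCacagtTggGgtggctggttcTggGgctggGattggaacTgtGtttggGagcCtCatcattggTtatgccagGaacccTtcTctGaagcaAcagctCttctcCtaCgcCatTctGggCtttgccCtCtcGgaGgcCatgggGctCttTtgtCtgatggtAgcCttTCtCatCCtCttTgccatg
ATP5MC3: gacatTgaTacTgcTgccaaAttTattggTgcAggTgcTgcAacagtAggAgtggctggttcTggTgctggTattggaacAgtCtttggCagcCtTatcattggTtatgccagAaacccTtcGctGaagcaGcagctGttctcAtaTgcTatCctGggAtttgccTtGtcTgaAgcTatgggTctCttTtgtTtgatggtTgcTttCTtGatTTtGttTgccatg
ATP5MC2 differed from ATP5MC1 at 25 bases (88.9% identity) and ATP5MC3 at 42 (81.3%), with 0 amino acid changes, and no run longer than 17 bases was identical to ATP5MC1 in the same place.

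Of these 3 genes, ATP5MC1 and ATP5MC3 rose. ATP5MC1 had 21.3, 24 and 14.9 scaled RPM in control 1 to 3 against 50.5, 300.2 and 178 in sh-JMJD1C 1 to 3 (log2 fold change 2.85, SE 0.62, adjusted p = 0.0305). ATP5MC3 had 29.9, 46.8 and 28.8 scaled RPM in control 1 to 3 against 89.7, 322 and 282 in sh-JMJD1C 1 to 3 (log2 fold change 2.52, SE 0.52, adjusted p = 0.0254). ATP5MC2, the most read of the 3 in the controls, had 89.6, 191 and 104 scaled RPM in control 1 to 3 against 218, 381 and 200.2 in sh-JMJD1C 1 to 3 (log2 fold change 1.04, SE 0.42, adjusted p = 0.123). All 3 were higher in every sh-JMJD1C library, and ATP5MC2 did not pass. Its share of the reads on the 3 genes was 63.6% (exact 95% interval 50.9% to 75.1%), 72.9% (69.3% to 76.3%) and 70.4% (66.5% to 74.0%) in control 1 to 3. In sh-JMJD1C 1, 2 and 3 it was 60.9% (56.9% to 64.7%), 38.0% (35.5% to 40.5%) and 30.3% (27.4% to 33.4%). The means were 69.0% ± 4.80 and 43.0% ± 15.9 (SD, n = 3 each), and a two-sided exact permutation test again reached only its limit of p = 0.10. This comparison was chosen after the values were seen, and sh-JMJD1C 1 lay within the counting interval of control 1. The pseudogene copy ATP5MC2P4 had 89 reads against 2161 of ATP5MC2, and whether reads were split between them was not tested. The ATP5MC2 reads rest on the smallest length giving whole reads.

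**Figure D4:**
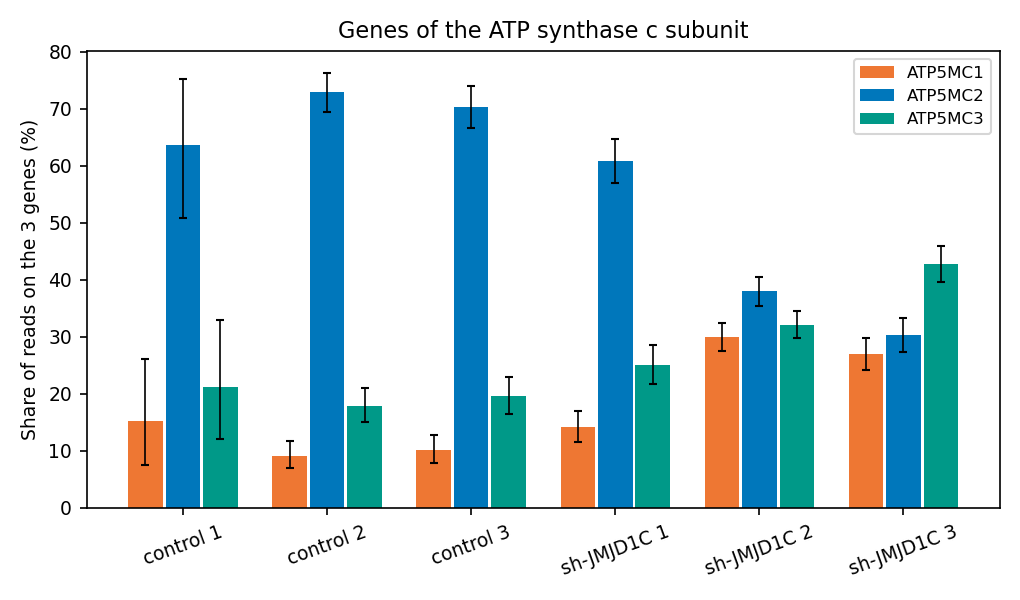
Share of the reads on ATP5MC1, ATP5MC2 and ATP5MC3 that fell on each gene, in percent, by library, with exact 95% binomial intervals as error bars. ATP5MC2 holds 60.9% to 72.9% in the controls and sh-JMJD1C 1 and 38.0% and 30.3% in sh-JMJD1C 2 and 3.

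Most members have short transcripts, and in these libraries fold changes varied with length over all genes. The principal transcript of the members was 924 bases at the median over the tested members, against 3140.0 for all tested genes. Across 10206 protein-coding genes the rank correlation of the log2 fold change with that length was -0.470, and with GC content it was 0.575 (10208 genes). Over the 80 members the values were -0.357 and 0.356. All points share the same 6 libraries and genes are not replicates. The class of protein-coding genes with the shortest transcripts, 207 to 1306 bases, had a median fold change of 1.13, and the 54 members in it had 1.41, with 37 of them above the median of that class. Over all 10 length classes, 61 of the 80 members lay above the median of their class.

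With the trend over the principal transcript length taken out of each library, the members' median fell to 0.76 and 65 of 80 lay above 0 (49.4% of all genes). In that fit 4 members passed as higher and 0 as lower, against 2.54% and 1.15% of all genes: ATP5F1B, ATP5MC3, NDUFB7 and UQCRC1, with ATP5MC1 at an adjusted p of 0.0508. With the trend over the longest transcript removed instead, 3 passed as higher (ATP5MC1, ATP5MC3 and UQCRC1) and 0 as lower, against 2.13% and 0.952% of all genes, 69 of 80 lay above 0 (49.5% of all genes) and the median was 0.85. With length and GC trends both removed, 4 passed as higher (ATP5F1A, ATP5MC1, ATP5MC3 and COX7A2L) and NDUFA4L2 as lower, against 3.38% and 2.7% of all genes, with a median of 0.88. Length and GC content were those of the longest transcript. Over the members this fit reversed both trends: the rank correlation went from -0.363 to 0.398 with that length and from 0.356 to -0.347 with GC content. ATP5F1A went from 1.26 to 1.92, ATP5MC3 from 2.52 to 3.46 and NDUFA4L2 from -0.63 to -1.94. ATP5MC3 was among the calls of each of these 3 versions. In limma-voom 5 of the 80 members lay below 0, 4 of them in complex I. With the principal transcript trend removed 15 did, 9 of them in complex I. Among the genes named here, SDHD, COX6C, ATP5IF1 and ATP5PO turned to below 0 in that fit, to -0.47, -0.44, -0.79 and -0.37, and did not pass. Over protein-coding genes alone, limma on FPKM passed 15 of 82 members as higher, against 5.14% of those genes, and 0 as lower, against 3.85%.

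**Figure D5:**
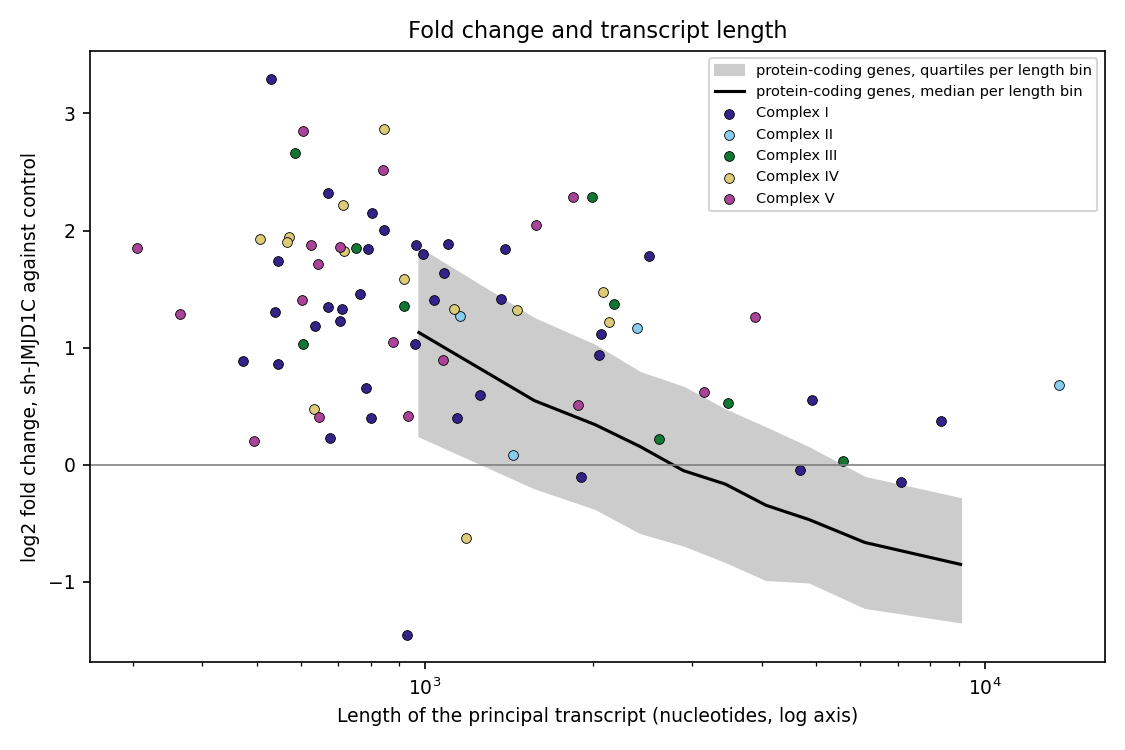
Log2 fold change of sh-JMJD1C against control (limma-voom on reads) over the length of the principal transcript in nucleotides on a log axis, for the 80 tested members (points, coloured by complex) and for protein-coding genes in 10 length classes (line, median; band, quartiles). The line falls from 1.13 in the shortest class to -0.85 in the longest, and 61 of 80 members lie above the median of their class.

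Genes that work beside the members were counted from lists chosen by function. The counts of each list below stand beside 3.7% of all genes risen and 1.79% fallen in limma-voom. Counts at an unadjusted p below 0.05 stand beside 3653 of 11872 genes in limma-voom and 3658 of 18383 in limma on FPKM. Of 45 tested assembly factors, which build the complexes without staying in them, 1 rose in limma-voom, 0 fell, 23 lay above 0 and the median was 0.10. BCS1L, which inserts the Rieske protein into complex III, had 12.8, 18.7 and 13.4 scaled RPM in control 1 to 3 against 36.9, 82.9 and 54.1 in sh-JMJD1C 1 to 3 (log2 fold change 1.82, SE 0.45, adjusted p = 0.0412). It did not pass with the longest transcript, the principal transcript or length and GC trends removed (adjusted p = 0.0722, 0.0686 and 0.0883). COX14 (2.05, adjusted p = 0.154) and TACO1 (1.82, 0.0675) lay above 0 and COX20 (-1.85, 0.0651) and NDUFAF4 (-1.89, 0.214) below, all for limma-voom and none past the threshold.

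CYC1, cytochrome c1 of complex III, whose symbol lies outside the rule, had 44.8, 76.8 and 33.5 scaled RPM in control 1 to 3 against 121, 459 and 245 in sh-JMJD1C 1 to 3 and rose (log2 fold change 2.28, SE 0.52, adjusted p = 0.0342), a call that was likewise lost in these versions (adjusted p = 0.0573, 0.0547 and 0.0705). CYCS, the mobile cytochrome c that links complexes III and IV, had 147, 85 and 65 scaled RPM in control 1 to 3 against 71, 50 and 121 in sh-JMJD1C 1 to 3 and overlapped between the groups (log2 fold change -0.25, SE 0.44, adjusted p = 0.721). HCCS, which attaches heme to both, had 1.16 (adjusted p = 0.0816). Of 12 tested genes of coenzyme Q synthesis, 0 passed (1 at an unadjusted p below 0.05) with a median of 0.33. COQ3, COQ8B, COQ10A and COQ6 had fold changes from 0.87 to 1.26. Of 17 TCA cycle enzymes, 0 passed (8 unadjusted; limma on FPKM 0, 4 unadjusted) and the median was 0.70, with IDH3B (1.50, adjusted p = 0.0607) and IDH3G (1.45, 0.0643) above 0 and DLD (-1.13, 0.143) below.

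The 13 subunits encoded in the mitochondrion overlapped between the groups in every case. Of all genes 17.4% were higher without overlap and 17.2% lower. In limma-voom 0 of the 13 subunits passed (0 at an unadjusted p below 0.05, and the same by limma on FPKM), 1 lay above 0 and the median was -0.62. With the longest or the principal transcript trend removed the median was -1.49 or -1.50 and 0 lay above 0. In these fits 2 or 3 had an unadjusted p below 0.05 (3101 or 3180 of all 11872 genes) with 0 called. With length and GC trends removed the median was -1.27. MT-CO1, the catalytic subunit of complex IV, had 11521, 9665 and 2489.8 scaled RPM in control 1 to 3 against 12618, 1859 and 1896 in sh-JMJD1C 1 to 3. Control 1 and 2 and sh-JMJD1C 1 were high and the other 3 libraries low. MT-CO3 had the one value above 0 (0.21, adjusted p = 0.839; -0.64 with the principal transcript trend removed), and MT-ND6, MT-ND2 and MT-ND4 were lowest, at -1.05, -1.03 and -1.01.

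Of 15 tested regulators of mitochondrial biogenesis, 0 rose, 1 fell and 3 lay above 0, with a median of -0.51. Their principal transcripts are long, 4816 bases at the median, and protein-coding genes of 4427 to 5408 bases had a median fold change of -0.47. With the longest or the principal transcript trend removed, the median of the regulators was -0.22 or -0.20, and 6 or 5 lay above 0. PPARGC1A, the coactivator of respiratory chain genes, fell, from 64, 48.4 and 43 scaled RPM in control 1 to 3 to 23.8, 6.85 and 9.13 in sh-JMJD1C 1 to 3 (log2 fold change -2.04, SE 0.50, adjusted p = 0.0412). With the trend over principal transcript length removed it did not pass (adjusted p = 0.0816). POLRMT, the RNA polymerase of the mitochondrion, had 17.1, 39.8 and 22 scaled RPM in control 1 to 3 against 78.3, 117 and 55.5 in sh-JMJD1C 1 to 3 (log2 fold change 1.57, SE 0.45, adjusted p = 0.0560), and passed in that version (adjusted p = 0.0453). TFAM, which packages mitochondrial DNA and is a factor for its transcription, had -1.25 (adjusted p = 0.334), MTERF1 had -1.27 (0.218) and GABPA, the DNA-binding part of GABP, had -0.95 (0.192).

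Of 13 tested carriers of the mitochondrial membranes, 2 rose, 0 fell, 12 lay above 0 and the median was 0.98. SLC25A5, an ADP/ATP translocase that exports the ATP made by complex V, had 130.1, 166 and 224 scaled RPM in control 1 to 3 against 283, 878 and 784 in sh-JMJD1C 1 to 3 (log2 fold change 1.77, SE 0.47, adjusted p = 0.0495), and SLC25A10, the dicarboxylate carrier, had 2.74 (adjusted p = 0.0245). With the principal transcript trend removed SLC25A5 did not pass (adjusted p = 0.103) and SLC25A10 did (0.0318). With length and GC trends removed 0 of the 13 carriers passed. MPC2, UCP2, SLC25A11 and VDAC1 had fold changes from 1.04 to 1.28 and did not pass. Among 23 tested genes of import and inner membrane structure, 3 rose, 15 lay above 0 and the median was 0.51. They were PHB1, the prohibitin that scaffolds the membrane (log2 fold change 2.35, SE 0.48, adjusted p = 0.0254), TIMM13, a chaperone of the intermembrane space (log2 fold change 2.20, SE 0.50, adjusted p = 0.0337), and TOMM40, the import pore (log2 fold change 1.62, SE 0.40, adjusted p = 0.0414). TOMM40 did not pass with the principal transcript trend removed (adjusted p = 0.0719), nor TIMM13 with the longest transcript trend removed (0.0542). In TIMM8B the fold change of 3.00 did not pass (adjusted p = 0.105), nor did those of MICOS13, TIMM10 and TOMM22 (2.43, 2.40 and 2.02).

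The promoters of the members were read from RefSeq (GRCh38.p14), as 250 bases before and 50 bases after the start of each gene, for the 71 of 90 members the table holds. Letters were searched on both strands, and a match is a description of the sequence. CCGGAAG, the core bound by ETS factors such as GABP, was in 28.2% of the members' promoters and 10.7% of all 27305. GCATGCG, a short core of the NRF1 site, was in 18.3% and 4.13%, and AAGATGG, a YY1 core, in 22.5% and 6.06%. GGGCGG, bound by SP and KLF factors, was in 60.6% and 44.6%, while TATAAA (9.86% and 12%) and CCAAT (35.2% and 35.7%) differed less. The promoters of members had a median GC content of 61% and 23 CG dinucleotides, against 58.3% and 14 in all promoters. Of the 13 called members 9 have a promoter in the table, of which 5 hold the ETS core, 2 the NRF1 core and 1 the YY1 core.

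A pair of promoters is shown, chosen after the values were seen, since both genes passed limma-voom with and without the trend over principal transcript length while their promoters hold different cores, in capitals. NDUFB7 (chr19:14572017-14572316, minus strand) holds 1 ETS core and UQCRC1 (chr3:48609597-48609896, minus strand) 1 YY1 core, both written 5′ to 3′ on the strand of the gene.
NDUFB7: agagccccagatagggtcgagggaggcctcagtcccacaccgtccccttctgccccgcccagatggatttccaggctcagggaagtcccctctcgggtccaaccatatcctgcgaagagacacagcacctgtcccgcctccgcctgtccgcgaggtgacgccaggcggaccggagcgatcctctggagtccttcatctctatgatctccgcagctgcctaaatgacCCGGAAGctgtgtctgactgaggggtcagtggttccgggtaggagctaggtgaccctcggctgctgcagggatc
UQCRC1: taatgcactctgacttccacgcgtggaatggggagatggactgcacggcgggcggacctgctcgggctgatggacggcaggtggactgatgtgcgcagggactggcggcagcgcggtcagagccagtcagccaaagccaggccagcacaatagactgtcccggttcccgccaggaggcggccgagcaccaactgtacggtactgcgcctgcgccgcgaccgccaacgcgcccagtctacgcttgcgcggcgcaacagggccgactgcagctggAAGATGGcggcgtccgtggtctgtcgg
In UQCRC1 the ATG inside the YY1 core is the annotated start codon (GENCODE release 29). Of the 16 members with that core, UQCRC1 among them, this was so in 11. Only matches on the strand of the gene were checked for it, and ATP5MG, ATP5PB, COX7C and UQCRC2 had 0 such matches.

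Processed copies of members are common in the human genome: 174 annotated pseudogenes carry a member's name, and 61 of them had reads. They took 0.541% to 1.65% of the reads on members and these copies together, highest in control 1 and lowest in sh-JMJD1C 2. For single members the share could be larger, as for NDUFV2 and COX6A1 above.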

How the data were processed

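Nuclear-enriched RNA of LN-229 cells was measured in 3 control-NC and 3 sh-JMJD1C libraries. The authors deposited FPKM per gene, 58174 Ensembl genes in each library. Per the file headers, each column rests on a larger portion of the reads than the one before, and the last, on all of them, was used. The submitters' processing notes list Bowtie 0.12.2 and hg38 without a role. How reads were counted, and with which strand setting, is not stated in the notes or labels used here, so reads of overlapping genes on opposite strands cannot be told apart.

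FPKM were divided by median-ratio factors, and log2(FPKM + 0.5) of genes with a mean of at least 0.5 was fitted with limma 3.58.1 (R 4.3.3, trend option, two-sided, Benjamini-Hochberg over all genes, threshold 0.05). Low FPKM values in the deposited tables step by whole reads, so reads were recovered from FPKM, gene length and library total. For 27488 of 29280 genes (93.9%) the length used was the sum of all annotated transcripts in GENCODE release 29, and for 1791, 8 members among them (NDUFA6, NDUFB9, NDUFV1, SDHD, COX6B1, COX7B, ATP5MC2 and ATP5MK), the smallest length giving whole reads within 0.05 of a read. Deposited FPKM therefore do not compare between genes, and levels between genes are scaled RPM per kilobase of principal transcript. Recovered reads of genes with at least 60 reads were fitted with limma-voom, also with lowess trends (span 0.3) over transcript length or GC content removed. GC content, and the length removed together with it, were those of the longest transcript. Intervals are exact (Clopper-Pearson) at 95%, and a floor is 3 reads. Both fits were tested on simulated data.

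Genes named are JMJD1C, members that passed either fit, and per complex the 3 highest and 2 lowest by fold change among members with at least 60 reads and the 2 highest by level per length, the tissue-restricted isoforms and the c subunit genes. From other lists they are genes that passed and at most 4 more with the largest change. 1 gene that this rule names is not reported here. Members, lists and the naming rule were chosen with earlier results of these data known. Replicate numbers were not taken as pairs, and the labels do not say that they are. Correlations of same-numbered deviations were 0.023, 0.375 and 0.48 on reads, and those of different numbers -0.572 to 0.181. Alternatives were pseudocounts, filters, scalings, array weights, protein-coding genes alone, length and GC corrections, the replicate block and leaving out libraries.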

Additional observations from a re-analysis of the deposited data

How the results depend on the processing

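The number of all genes passing the planned test, 34, was 84 and 0 with pseudocounts of 0.1 and 1, 0 with no filter, 79 on FPKM as deposited, 2 with quantile normalization, 118 with array weights and 914 over protein-coding genes alone. On reads it was 652, 1192 with library totals, 366 with the longest transcript trend removed, 438 with the principal transcript trend removed and 722 with length and GC trends removed. Without both libraries numbered 1 it was 0 on FPKM and 894 on reads, and leaving out 1 library gave 0 to 2333. Members called, 0 in the planned test, were 15 over protein-coding genes alone, 13 on reads, 8 with library totals, 3, 4 and 5 with the longest transcript, principal transcript, and length and GC trends removed, 28 on reads without both libraries numbered 1, and 0 to 50 when 1 library was left out. With the replicate number as a block, 0 genes passed on FPKM and 4248 on reads, of them 57 members. Deviations of same-numbered libraries 1, 2 and 3 correlated at 0.009, 0.14 and 0.22 on FPKM and at 0.023, 0.375 and 0.48 on reads. Whether the numbers mark pairs or batches was not tested and the labels do not say, so no call above rests on the block fits. With library totals the median of all genes was -0.52 and that of the members 0.89.

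The members' median, 1.13, was 1.71 on reads without both libraries numbered 1 and 0.66 to 1.71 with 1 library left out. Complex medians moved to 1.58 (I), 1.23 (II) and 1.65 (III) on reads without the libraries numbered 1, to 1.49 (III) on FPKM without them, and to 0.72 (V) with the principal transcript trend removed. With 1 library left out they ranged from 0.59 to 1.54 (I), 0.68 to 1.26 (II), 0.23 to 1.56 (III), 0.81 to 2.12 (IV) and 0.77 to 1.75 (V). JMJD1C passed at -1.83 over protein-coding genes, -2.50 on reads, -2.92 with library totals, -1.74 and -1.70 with the longest and principal transcript trends removed, -2.48 with the replicate block on reads and -2.83 on reads without the libraries numbered 1, and ranged from -2.91 to -1.33 with 1 library left out.

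Some members took the sign opposite to that of the planned test. ATP5IF1, -0.022 there, was 0.20 on reads, 0.055 with the replicate block, and 0.20 and 0.43 without both libraries numbered 1, but -0.35, -0.79 and -0.46 with the longest, principal, and length and GC trends removed. ATP5PO, 0.20 there, was -0.052 on FPKM as deposited, -0.077 with library totals and -0.37 with the principal transcript trend removed. COX6C (0.38) was -0.33 and -0.44 with the longest and principal transcript trends removed, NDUFS1 (-0.17) 0.75, 0.55 and, with length and GC trends removed, 1.18, NDUFB10 (1.13) -0.10 in the last and COX7A1 (-0.26) 0.089 with quantile normalization. SDHD (0.21) was -0.42 with library totals, -0.64, -0.47 and -0.098 with the longest, principal, and length and GC trends removed. UQCRB (-0.075) was 0.17 with array weights, 0.035 on reads, 0.48, 0.61 and 1.09 with those trends removed, 0.013 with the replicate block, and 0.58 and 0.77 without the libraries numbered 1. UQCRC2 (0.16) was -0.13, -0.14 and -0.16 on FPKM as deposited, with quantile normalization and with library totals. With 1 library left out the values ranged from -1.23 to 0.68 for ATP5IF1, -0.92 to 0.89 for COX6C, -0.79 to 0.012 for COX7A1, -0.12 to 1.46 for NDUFB10, -0.27 to 1.01 for NDUFS1, -1.44 to 1.14 for SDHD, -0.52 to 1.06 for UQCRB, -0.072 to 0.31 for UQCRC2 and -0.17 to 1.58 for UQCRH (0.94). The cause was not tested. Depth limits members of few reads most, and control 1 with its 544442 reads sets the highest floor.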
